A study of Mus musculus with 6 samples.

Results

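The cytosolic heat shock chaperones were followed here through 10 genes, *Hspa1a*, *Hspa1b*, *Hspa8*, *Hsp90aa1*, *Hsp90ab1*, *Dnajb1*, *Dnaja1*, *Hspb1*, *Hsph1* and *Hsf1*, taken by name from the 31169 genes of the deposited count table. All 10 were present, and all 10 were among the 17707 genes that passed the filter on low counts. Retinal poly(A) RNA was sequenced from C57BL/6 mice that were injected in the anterior chamber at 1 month of age and were 2 months old at harvest. The 3 control libraries came from saline-injected retina and the 3 others from retina injected with 15 μm microbeads, which obstruct aqueous outflow and raise intraocular pressure (IOP), each 4 weeks after injection. The tissue was whole retina, so each value sums over all of its cell types. The labels do not say whether each library came from separate animals. The p-values therefore measure the spread between these libraries.

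Heat shock chaperones bind unfolded or aggregation-prone proteins in the cytosol and nucleus. HSP70 proteins take clients from J-domain co-chaperones and release them with the help of exchange factors such as the HSP110 protein, HSP90 proteins complete the folding of kinases and receptors, and small heat shock proteins hold unfolded clients. HSF1, the transcription factor of the heat shock response, is held inactive by these chaperones and, when unfolded proteins accumulate, binds GAA repeats upstream of the stress-inducible genes. Retinal photoreceptors and ganglion cells carry a high load of protein synthesis and transport, and chaperone induction has long been studied in the stressed retina.

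The saline libraries held 36085737, 46481382 and 37546884 counts, and the microbead libraries 19834366, 13574949 and 15647739 counts. By their medians the saline libraries were 2.40 times deeper. Levels are counts divided by TMM-scaled library sizes and multiplied by 1000000 (CPM), on which scale 3 counts correspond to between 0.0621 and 0.216 CPM, a limit that covers counting error only. Mitochondrial genes took 3.19%, 3.30% and 3.57% of the saline counts and 10.6%, 8.90% and 9.97% of the microbead counts. In the sample descriptions, the library names of the saline samples belong to one series and those of the microbead samples to another, although the column titles run on across both groups. The labels name no preparation or batch, and if the groups were prepared apart, such a difference and the effect of injection cannot be told apart. In bulk retina, fewer cells of a type and less RNA per cell cannot be told apart either.

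By their marker genes, 2 saline libraries stood apart. Saline replicate 3 held 4030 CPM of 15 immediate early genes, where saline replicates 1 and 2 held 418 and 277 CPM, with 249, 267 and 293 CPM after microbeads. *Junb*, an AP-1 transcription factor of this list, reached 401 CPM there, while saline replicates 1 and 2 had 35.6 and 16.8 CPM. The same library held 365 CPM of 8 lens genes, led by *Cryaa*, while the other saline libraries held 29.9 and 0.994 CPM and no microbead library exceeded 1.69 CPM. It also held 244 CPM of 7 pigment epithelium genes, led by *Ttr*, where saline replicates 1 and 2 held 12.2 and 56.3 CPM, with 104 to 125 CPM after microbeads. Saline replicate 1 was low in the 10 ganglion cell genes, led by *Nefl*, with 429 CPM where saline replicates 2 and 3 held 1184 and 1526 CPM, with 1004 to 1368 CPM after microbeads. Saline replicate 1 was also high in the 7 microglia genes, led by *C1qa*, with 172 CPM. In these genes saline replicates 2 and 3 held 50.6 and 76.5 CPM, with 42.2 to 93.4 CPM after microbeads. Results are therefore given with all 6 libraries and, for those of the 10 genes that passed, also without either of these.

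Of the 10 chaperone genes, 3 passed an adjusted p-value of 0.05 in the quasi-likelihood test of edgeR, adjusted over all 17707 genes. *Hspa1b* and *Dnajb1* were lower and *Hsf1* was higher in microbead-injected retina. Over all genes tested, 12.8% passed, 6.46% higher and 6.31% lower. The groups did not overlap for 6 of the 10 genes, 5 lower and 1 higher, as was the case for 37.8% of all genes tested. The median log2 fold change of the 10 was -0.48, against -0.03 over all genes tested. Summed, the 10 genes held 3286, 3358 and 4053 CPM in the saline libraries and 3628, 2914 and 2508 CPM in the microbead libraries, so the groups overlapped in their total. Without saline replicate 3, the same 3 genes passed, and likewise without saline replicate 1. Without microbead replicate 3, 0 of the 10 genes passed in edgeR, with 3 at an unadjusted p-value under 0.05, while 46 of all genes tested passed.

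**Figure D1:**
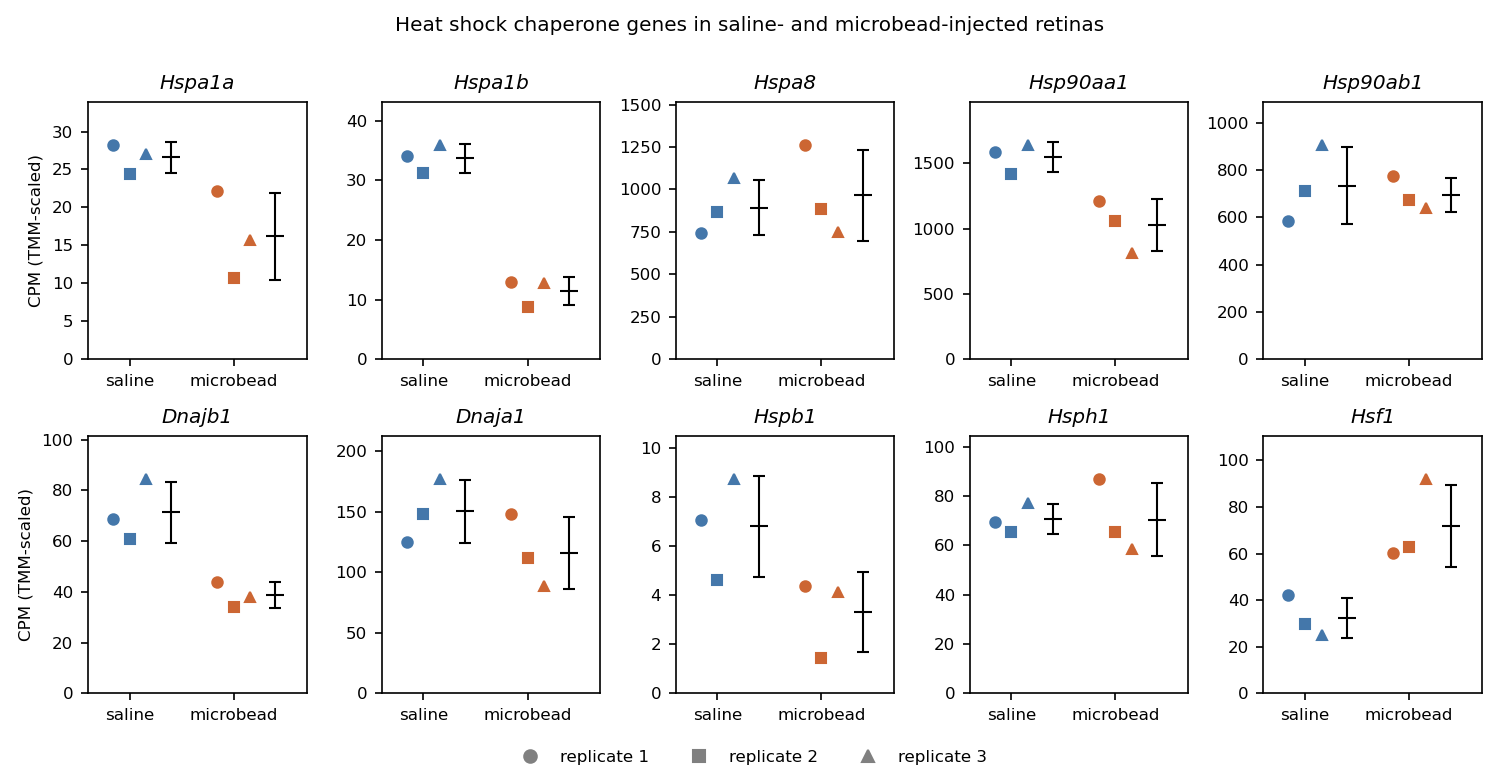
CPM (TMM-scaled, linear axes from 0) of each of the 10 genes in the 3 saline (blue) and 3 microbead (orange) libraries, with a symbol for each replicate and, beside the points, the mean and SD of the group. *Hspa1b* lies between 31.2 and 36.0 CPM in saline and between 8.80 and 13.0 CPM in microbead libraries, while the groups overlap for *Hspa8*, *Hsp90ab1*, *Dnaja1* and *Hsph1*.

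*Hspa1b* encodes a stress-inducible HSP70. It was at 34.0, 31.2 and 36.0 CPM in the saline libraries and at 13.0, 8.80 and 12.7 CPM in the microbead libraries. Every microbead library lay below every saline library, and the spread within each group was small beside the gap. The means were 33.7 ± 2.44 CPM and 11.5 ± 2.33 CPM (SD, n = 3 each). Its log2 fold change was -1.55 (SE 0.21), with an adjusted p of 0.00791 from edgeR. It was -1.50 without saline replicate 3 and -1.55 without saline replicate 1. With a library left out, its adjusted p from edgeR ranged from 0.00713 to 0.0599, and only the fit without microbead replicate 3 (0.0599) missed the threshold. *Hspa1b* (ENSMUSG00000090877.3) is a gene of 1 exon on the reverse strand of chromosome 17, at chr17:34956436-34959238 of GRCm38.

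*Hspa1a* (ENSMUSG00000091971.3), its neighbour at chr17:34969190-34972156 on the same strand, encodes a near-identical HSP70. It was at 28.3, 24.4 and 27.1 CPM in the saline libraries and at 22.1, 10.7 and 15.7 CPM in the microbead libraries. The microbead libraries were again the lowest, but microbead replicate 1 came close to the saline range. *Hspa1a* had a log2 fold change of -0.71 (SE 0.26) and did not pass, with an adjusted p of 0.0934 from edgeR, and was at -0.47 without microbead replicate 2. Of the 100-base stretches of their transcripts, 49.9% of those of *Hspa1b* and 47.1% of those of *Hspa1a* occur in the other gene. How reads that fit both genes were counted is not given in the sources used here, so the division of counts between them is uncertain. *Hspa1a* also shares 19.0% of its exon with a gene on the opposite strand, which was not analysed here.

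Adding both rows removes the division between the pair, but reads that fit both genes may have been counted in neither row. Both genes also share stretches with other loci. Together the pair was at 62.3, 55.6 and 63.1 CPM in the saline libraries and at 35.1, 19.5 and 28.4 CPM in the microbead libraries. No microbead library reached the saline range (two-sided exact permutation p = 0.1, which with 3 against 3 libraries is the lowest value possible). Fitted as 1 row, the pair had a log2 fold change of -1.12 (SE 0.22), a 2.18-fold fall, with an adjusted p of 0.0181 from edgeR. It was -1.09 without saline replicate 3 and -1.10 without saline replicate 1. With a library left out, the adjusted p from edgeR ranged from 0.0199 to 0.0869, and it missed the threshold without saline replicate 2 (0.0548) and without microbead replicate 3 (0.0869). *Hspa1b* made up 54.6%, 56.1% and 57.1% of the counts of the pair in the saline libraries and 37.0%, 45.0% and 44.7% in the microbead libraries. This share was lower in every microbead library (two-sided exact permutation test, p = 0.1), and a part of reads that changed genes was not tested.

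*Hspa8* encodes HSC70, the constitutive HSP70 of the cytosol, which also uncoats clathrin vesicles. It was at 744, 866 and 1066 CPM in the saline libraries and at 1265, 887 and 748 CPM in the microbead libraries. The groups overlapped, with microbead replicate 1 the highest of all. The fitted difference was a log2 fold change of 0.12 (95% interval -0.41 to 0.64), with an adjusted p of 0.774 from edgeR, and it was -0.13 without microbead replicate 1. The pair *Hspa1a* and *Hspa1b* made up 7.73%, 6.03% and 5.59% of the HSP70 counts of these 3 genes in the saline libraries and 2.70%, 2.16% and 3.66% in the microbead libraries. Within a library this share needs no scaling, and the groups did not overlap (two-sided exact permutation test, p = 0.1). Reads that fit several places may be missing from these counts.

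Sequences upstream of *Hspa1a*, *Hspa1b*, *Dnajb1* and the small heat shock protein gene *Hspb1*, whose microbead values all lay below their saline values, are shown because heat shock factors bind alternating GAA units. Promoter sequences from RefSeq (GRCm38.p6) matched 6 of the 10 genes, *Hspa1a*, *Hspa1b*, *Hspb1*, *Hsph1*, *Dnajb1* and *Dnaja1*. The motifs searched were GAANNTTC and TTCNNGAA, each of which reads the same on both strands, and matches are in capitals. Such a match occurred in the 250 bases before the start of 12.8% of 32851 promoters. The windows of *Hspa1a* (chr17:34972157-34972406, reverse strand) and *Hspa1b* (chr17:34959239-34959488, reverse strand) each held 1 match, starting 104 bases before the transcript. They were the same at 247 of 250 positions, so the pair shares most of this upstream sequence. The window of *Hspb1* (chr5:135887669-135887918, forward strand) held 2 matches. The window of *Dnajb1* shown (chr8:83607925-83608174, forward strand) and its other window held 0. Of the genes whose groups overlapped, *Hsph1* had 1 match, at the same site in both of its overlapping windows. *Dnaja1* had a match in 1 of 3 windows, so a match was not limited to the lower genes. The longer motifs GAANNTTCNNGAA and TTCNNGAANNTTC, each the reverse complement of the other, occurred in 0.466% of promoters and in 0 windows of these 6 genes.
Hspa1a: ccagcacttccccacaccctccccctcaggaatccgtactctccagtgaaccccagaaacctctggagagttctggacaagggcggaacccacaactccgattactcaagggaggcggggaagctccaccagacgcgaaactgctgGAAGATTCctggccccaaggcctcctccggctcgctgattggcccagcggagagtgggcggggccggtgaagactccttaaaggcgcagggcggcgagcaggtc
Hspa1b: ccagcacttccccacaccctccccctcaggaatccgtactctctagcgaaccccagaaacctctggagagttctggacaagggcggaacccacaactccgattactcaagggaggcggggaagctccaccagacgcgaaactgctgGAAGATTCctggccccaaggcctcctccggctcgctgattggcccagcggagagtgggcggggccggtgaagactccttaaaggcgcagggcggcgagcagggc
Hspb1: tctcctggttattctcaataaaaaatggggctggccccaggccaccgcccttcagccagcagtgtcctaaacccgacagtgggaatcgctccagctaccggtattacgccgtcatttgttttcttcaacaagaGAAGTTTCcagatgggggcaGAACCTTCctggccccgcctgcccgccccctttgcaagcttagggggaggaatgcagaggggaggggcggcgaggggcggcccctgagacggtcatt
Dnajb1: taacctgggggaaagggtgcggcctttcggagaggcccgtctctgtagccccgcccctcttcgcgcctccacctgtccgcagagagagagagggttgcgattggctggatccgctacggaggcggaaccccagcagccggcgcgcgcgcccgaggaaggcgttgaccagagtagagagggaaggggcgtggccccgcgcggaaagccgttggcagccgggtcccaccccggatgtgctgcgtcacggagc

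*Hsp90aa1* encodes HSP90α, the stress-inducible HSP90. It was at 1584, 1417 and 1644 CPM in the saline libraries and at 1210, 1058 and 812 CPM in the microbead libraries. All microbead values lay below all saline values, with microbead replicate 3 the lowest. The means were 1548 ± 118 CPM and 1027 ± 201 CPM (SD, n = 3 each). The log2 fold change was -0.59 (SE 0.20) and did not pass in edgeR (adjusted p = 0.0753), but it passed in DESeq2 (-0.57, adjusted p = 0.0290). Over the 8 other processing choices with all libraries, the adjusted p of *Hsp90aa1* ranged from 0.0290 to 0.105. Without saline replicate 3, the log2 fold change was -0.55 (adjusted p = 0.137 from edgeR).

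*Hsp90ab1* encodes HSP90β, the constitutive HSP90. It was at 584, 711 and 907 CPM in the saline libraries and at 775, 673 and 637 CPM in the microbead libraries. The microbead values lay within the saline range. The log2 fold change was -0.08 (95% interval -0.54 to 0.38), with an adjusted p of 0.826 from edgeR. It was 0.10 without saline replicate 3 and -0.22 without saline replicate 1.

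*Hsp90aa1* made up 73.1%, 66.6% and 64.4% of the counts of both HSP90 genes in the saline libraries and 61.0%, 61.1% and 56.0% in the microbead libraries. The share was thus lower in every microbead library. The means were 68.0 ± 4.49% and 59.4 ± 2.89% (SD, n = 3 each), a difference of -8.65 percentage points (two-sided exact permutation test, p = 0.1). The difference was -10.5 points without saline replicate 3 and -6.13 points without saline replicate 1. Divided by exon length it was -9.19 points.

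**Figure D2:**
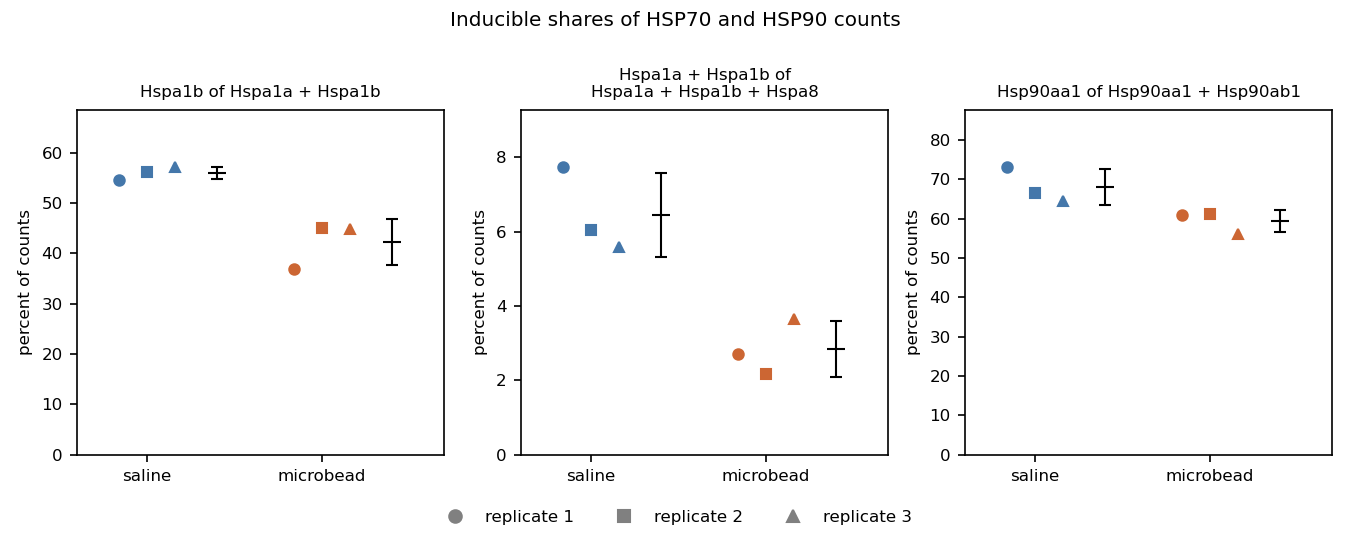
Shares of counts in each library, in percent on axes from 0, with the mean and SD beside the 3 saline (blue) and 3 microbead (orange) points: *Hspa1b* within its pair, the pair *Hspa1a* and *Hspa1b* within the 3 HSP70 genes, and *Hsp90aa1* within the HSP90 genes. In each panel all 3 microbead libraries lie below all 3 saline libraries, from 2.16% to 3.66% against 5.59% to 7.73% in the middle panel.

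*Dnajb1* (ENSMUSG00000005483.10, forward strand, chr8:83608193-83612653 of GRCm38) encodes the heat-inducible J-domain protein that stimulates the ATPase of HSP70. It was at 68.7, 60.9 and 84.6 CPM in the saline libraries and at 44.1, 34.1 and 38.0 CPM in the microbead libraries. The groups did not overlap, and saline replicate 3 was the highest. The means were 71.4 ± 12.1 CPM and 38.7 ± 5.01 CPM (SD, n = 3 each). Its log2 fold change was -0.88 (SE 0.19), with an adjusted p of 0.0225 from edgeR, and it was -0.74 without saline replicate 3 (0.0435) and -0.91 without saline replicate 1 (0.0237). With a library left out, the adjusted p from edgeR ranged up to 0.102, and *Dnajb1* missed the threshold without saline replicate 2 (0.0572), without microbead replicate 2 (0.0763) and without microbead replicate 3 (0.102). *Dnajb1* shares 0% of its 100-base stretches with transcripts of another locus.

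*Dnaja1*, a J-domain protein gene of the other main class, was at 125, 149 and 177 CPM in the saline libraries and at 148, 112 and 88.8 CPM in the microbead libraries. The groups overlapped through microbead replicate 1. The log2 fold change of *Dnaja1* was -0.37 (95% interval -0.87 to 0.13), with an adjusted p of 0.287 from edgeR. Leaving out saline replicate 3 gave -0.24, leaving out microbead replicate 3 gave -0.22, and leaving out microbead replicate 1 gave -0.59. Its exons overlap those of *Smu1* on the opposite strand over 7.05% of their length, and the strand setting of the counting is not given in the sources used here.

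*Hspb1*, the gene of the small heat shock protein HSP25, was covered by 266, 224 and 307 saline counts and by 85, 20 and 64 microbead counts. These correspond to 7.06, 4.64 and 8.75 CPM and to 4.37, 1.44 and 4.15 CPM. The groups did not overlap, but saline replicate 2 and microbead replicate 1 nearly met. The log2 fold change of *Hspb1* was -1.03 (SE 0.43), which did not pass (adjusted p = 0.140 from edgeR). It was -0.81 without saline replicate 3 (adjusted p = 0.281 from edgeR) and -0.66 without microbead replicate 2 (0.275).

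*Hsph1* encodes the HSP110 protein that acts as an exchange factor for HSP70. It was at 69.4, 65.6 and 77.3 CPM in the saline libraries and at 87.0, 65.6 and 58.7 CPM in the microbead libraries. The microbead libraries lay on both sides of the saline range. *Hsph1* had a log2 fold change of -0.01 (95% interval -0.43 to 0.42), with an adjusted p of 0.988 from edgeR, and its sign turned with the scaling.

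*Hsf1* (ENSMUSG00000022556, forward strand, chr15:76477422-76501913 of GRCm38), the gene of the heat shock transcription factor, differed in the other direction. It was at 42.0, 29.9 and 25.3 CPM in the saline libraries and at 60.4, 63.0 and 92.1 CPM in the microbead libraries. Every microbead library was above every saline library, and microbead replicate 3 was the highest. The means were 32.4 ± 8.66 CPM and 71.8 ± 17.6 CPM (SD, n = 3 each). Its log2 fold change was 1.149 (SE 0.25), a 2.22-fold rise, with an adjusted p of 0.0221 from edgeR. It was 1.00 without saline replicate 3 (adjusted p = 0.0398 from edgeR) and 1.38 without saline replicate 1 (0.0116). With a library left out, the adjusted p from edgeR ranged from 0.0116 to 0.100, and *Hsf1* missed the threshold without saline replicate 2 (0.0825) and without microbead replicate 3 (0.100). Its transcript level says nothing of the activity of the protein, which is set after translation. Like *Dnajb1*, *Hsf1* shares 0% of its 100-base stretches with another locus.

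**Figure D3:**
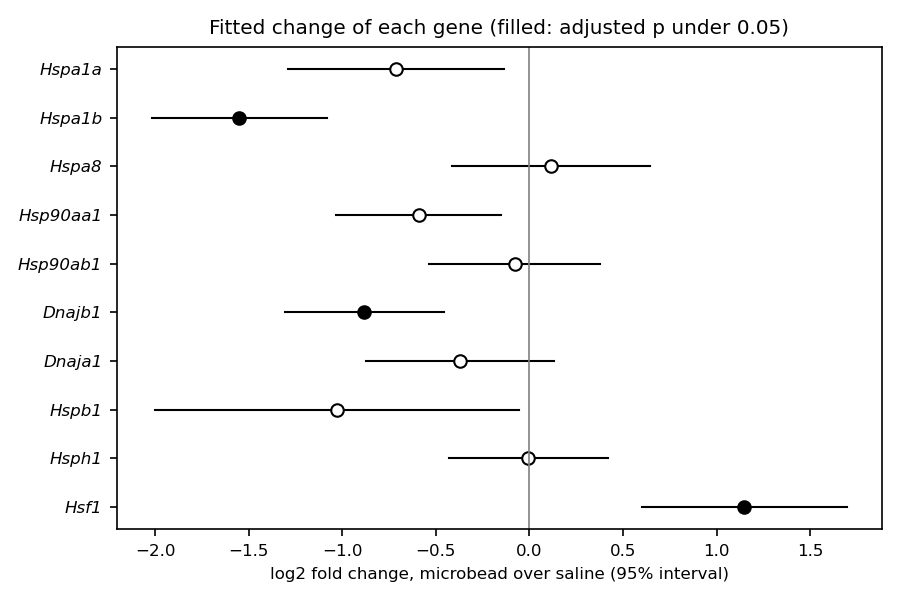
Fitted log2 fold change (microbead over saline, 3 libraries each) of each of the 10 genes from edgeR, with lines for the 95% interval and filled points for an adjusted p under 0.05. *Hspa1b* (-1.55) and *Dnajb1* (-0.88) lie below 0 and *Hsf1* (1.149) above it, while the intervals of *Hspa8*, *Hsp90ab1*, *Dnaja1* and *Hsph1* cross 0.

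Levels were compared between genes only as CPM per 1000 exon bases, counted over all annotated transcripts of a gene, coding or not. This length can exceed that of the transcripts present and so lower the value of a gene with many transcripts. It was 7099 bases for *Hsf1*, with 16 transcripts, and 2803 bases for *Hspa1b*, with 1. The order of the less abundant genes depends on this length. In saline-injected retina, *Hsp90aa1* led with 394 ± 30.0 CPM per 1000 bases (SD, n = 3, as for each value here), followed by *Hsp90ab1* (245 ± 54.3) and *Hspa8* (207 ± 37.8), whose libraries overlapped. On the same scale *Dnajb1* (22.3 ± 3.77) and *Dnaja1* (17.4 ± 3.03) overlapped, *Hspa1b* (12.04 ± 0.869) lay above *Hsph1* (9.74 ± 0.822) in every library, and *Hsph1*, *Hspa1a* (8.96 ± 0.673), *Hspb1* (6.61 ± 2.00) and *Hsf1* (4.56 ± 1.22) overlapped each with the next. Both HSP90 genes and *Hspa8* thus stood above the other 7 genes in every control library. In microbead-injected retina, the levels of *Hsp90aa1* (261 ± 51.1), *Hsp90ab1* (232 ± 23.7) and *Hspa8* (225 ± 62.2) overlapped. *Hsf1* had the lowest mean of the 10 in the controls on this scale. After microbeads it was at 10.1 ± 2.49 CPM per 1000 bases, above *Hspa1a* (5.46 ± 1.92), *Hspa1b* (4.10 ± 0.833) and *Hspb1* (3.22 ± 1.58).

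Of the 10 genes, 5 have processed pseudogenes in the table that share stretches of their transcripts. Those of *Hspa8*, 9 in number, summed to 10.8, 9.09 and 13.1 CPM in the saline libraries and to 1.80, 1.30 and 1.69 CPM in the microbead libraries. The 3 of *Hsp90aa1* summed to 26.6, 19.6 and 27.8 CPM and to 8.02, 4.76 and 4.80 CPM. Neither sum overlapped between the groups, nor did that of the 3 of *Dnaja1*, which differed less, with 2.26, 2.22 and 2.11 CPM against 1.34, 1.66 and 0.584 CPM. The 2 of *Hsp90ab1* summed to 1.11, 1.02 and 0.969 CPM in the saline libraries. In the microbead libraries they summed to 0.0514, 0.0721 and 0.0649 CPM, which was 1 count in each, under the limit of 3 counts. The pseudogenes of *Hsp90aa1* took at most 1.66% of the counts of the gene and its pseudogenes together, and those of *Hspa8* at most 1.43%. These counts were then added to each gene, a choice made after seeing the data. With them *Hsp90aa1* had a log2 fold change of -0.61 (adjusted p = 0.0712 from edgeR) and *Hspa8* of 0.10. Again 3 of the 10 genes passed, but *Hspa1b*, *Dnajb1* and *Hsf1* have no such pseudogenes, so this addition could not test their calls. Of the 100-base stretches, 38.0% of *Hsp90aa1*, 28.5% of *Hspa8*, 56.5% of *Hspa1a*, 49.9% of *Hspa1b*, 44.0% of *Hspb1* and 16.6% of *Dnaja1* occur in another locus, so their counts carry this uncertainty, while *Hsp90ab1* and *Hsph1* share 0%. Of the shorter 31-base stretches, 13.2% of *Hsp90ab1* occur in another locus.

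Among 8 other HSP70 and HSP110 genes, 1 passed, lower after microbeads, beside 12.8% of all genes tested. The median log2 fold change of the 8 was -0.47. The edgeR counts of the lists that follow stand beside the same 12.8%, their counts at an unadjusted p-value under 0.05 beside 31.4% of all genes tested, and those past the threshold in DESeq2 and limma-voom beside 20.2% and 12.5%. No list was tested as a set. The gene that passed was *Hspa4*, an HSP110-type exchange factor, at 223, 235 and 272 CPM in the saline libraries and 164, 160 and 143 CPM in the microbead libraries (log2 fold change -0.64, adjusted p = 0.0366 from edgeR). Its relative *Hspa4l* was at 310, 368 and 399 CPM and at 237, 278 and 203 CPM, with a log2 fold change of -0.59 that did not pass (adjusted p = 0.0678 from edgeR). Without saline replicate 3, *Hspa4* did not pass (-0.56, adjusted p = 0.0866 from edgeR).

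Of 14 other J-domain proteins, 1 was higher and 2 were lower, with a median of -0.17. *Dnajc5*, the gene of the synaptic vesicle chaperone CSPα, fell from 463, 499 and 565 CPM to 251, 285 and 256 CPM (log2 fold change -0.95, adjusted p = 0.0149 from edgeR). It kept its call without saline replicate 3 (-0.87, adjusted p = 0.0226 from edgeR). *Dnajb5* rose from 37.2, 41.9 and 36.7 CPM to 52.1, 63.0 and 65.3 CPM (0.64, adjusted p = 0.0394 from edgeR), a call that was lost without saline replicate 3 (0.0854). The third gene past the threshold was *Dnajb14* (-0.61, adjusted p = 0.0413 from edgeR), named after its value was seen.

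Of 10 exchange and adaptor factors of HSP70, 0 passed in edgeR, 7 had an unadjusted p-value under 0.05, and 2 passed in DESeq2 and 0 in limma-voom. The median was -0.37. *Bag6*, which guides tail-anchored and misfolded proteins, was at 272, 274 and 327 CPM in the saline libraries and 188, 219 and 319 CPM in the microbead libraries. *St13*, the HSP70-interacting protein HIP, was at 181, 200 and 236 CPM and at 163, 146 and 119 CPM, with a log2 fold change of -0.53 (adjusted p = 0.0885 from edgeR).

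Of 19 HSP90 co-chaperones measured, 1 was higher and 2 were lower, with a median of 0.03. *Ptges3*, the gene of p23, which stabilises the closed form of HSP90, fell from 101, 93.1 and 110 CPM to 73.3, 48.0 and 48.5 CPM (log2 fold change -0.84, adjusted p = 0.0314 from edgeR). *Ppid*, a cyclophilin that docks on HSP90, rose from 59.8, 54.9 and 49.1 CPM to 109, 82.8 and 74.8 CPM (0.70, adjusted p = 0.0422 from edgeR). The third was *Sugt1* (-0.64, adjusted p = 0.0467 from edgeR), named after its value was seen. Without saline replicate 3 none of these genes kept its call, with -0.78 for *Ptges3* (adjusted p = 0.0593 from edgeR).

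Of the 5 other small heat shock protein genes tested, 2 were higher, and the median was 0.62. *Hspb6*, a small heat shock protein known from muscle and vessels, rose from 135, 106 and 118 CPM to 233, 244 and 224 CPM (log2 fold change 0.97, adjusted p = 0.0143 from edgeR). *Hspb11*, which despite its name is known as a subunit of the intraflagellar transport complex of cilia, rose from 5.97, 7.33 and 10.6 CPM to 30.1, 19.4 and 17.9 CPM (1.50, adjusted p = 0.0174 from edgeR). Both passed without saline replicate 3 (adjusted p = 0.0218 and 0.0122 from edgeR). Among 4 tested heat shock factor genes and regulators of HSF1, 0 passed in edgeR, DESeq2 and limma-voom, 0 had an unadjusted p-value under 0.05, and the median was 0.29. *Hsf2* was at 34.4, 36.5 and 30.7 CPM in the saline libraries and 38.9, 38.1 and 33.7 CPM in the microbead libraries, which overlapped. *Hsbp1*, a binding protein of HSF1, was at 130, 124 and 159 CPM and at 231, 165 and 165 CPM, with a log2 fold change of 0.44 (adjusted p = 0.162 from edgeR).

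Of the 14 genes of the TRiC chaperonin and prefoldin, 1 passed, and the median was -0.10. This was *Pfdn5*, a prefoldin subunit that delivers actin and tubulin chains, which rose from 127, 118 and 162 CPM to 458, 259 and 226 CPM (log2 fold change 1.21, adjusted p = 0.0253 from edgeR). Without microbead replicate 1, the highest, it was 0.83 and did not pass (0.0548 from edgeR), nor did it without microbead replicate 2 (0.0523). *Cct5*, a subunit of the chaperonin ring, was at 206, 200 and 253 CPM and at 258, 174 and 187 CPM, which overlapped. Of 9 chaperones of the endoplasmic reticulum and mitochondria, 0 passed in edgeR, DESeq2 or limma-voom and 4 had an unadjusted p-value under 0.05. *Hspa5*, the HSP70 of the endoplasmic reticulum, was at 259, 256 and 363 CPM and at 285, 165 and 149 CPM. *Hsp90b1*, the HSP90 of the same compartment, was at 320, 288 and 380 CPM and at 724, 408 and 370 CPM, and the mitochondrial *Hspa9* at 182, 183 and 216 CPM and at 215, 174 and 185 CPM. None of these 3 genes separated the groups. None of the calls in these 8 lists was kept in the fit without saline replicate 2 or in that without microbead replicate 3. Over the 6 fits with a library left out, *Dnajc5* and *Hspb6* kept their calls in 4, *Hspb11* in 3, *Ptges3* and *Pfdn5* in 2, and *Hspa4*, *Dnajb5* and *Ppid* in 1.

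The immediate early genes, which can be induced with the chaperones, were high in saline replicate 3. Of the 10 chaperone genes named at the start, all but *Hspa1a* and *Hsf1* were also highest of the saline libraries there, by smaller margins, and *Hsf1* was lowest there. This was not particular to them, and the share over all genes was not counted. The TRiC and prefoldin genes summed to 1648, 1623 and 1993 CPM in the saline libraries and the bipolar genes to 1228, 1419 and 1588 CPM. The astrocyte, microglia and erythrocyte sums were not highest there. Of the 15 immediate early genes, 2 passed, both lower after microbeads, 12 had an unadjusted p-value under 0.05, and the median was -2.16. *Junb* had a log2 fold change of -3.51 (adjusted p = 0.0498 from edgeR) and *Atf3*, a stress-induced transcription factor, of -2.11 (0.0465). DESeq2 called 5 of the 15, beside 20.2% of all genes, and limma-voom 0, with *Junb* at -2.27 (adjusted p = 0.218) and *Atf3* at -1.84 (0.136) in limma-voom. *Junb* also missed the threshold in edgeR with RLE (0.0508) and upper-quartile scaling (0.0522). Without saline replicate 3 neither passed, with -0.99 for *Junb* (adjusted p = 0.0972 from edgeR) and -1.30 for *Atf3* (0.104), while *Fosl2*, named after its value was seen, did (-1.31, 0.0466). The count of immediate early genes past the threshold in edgeR was 11 without saline replicate 1 and 6 without saline replicate 2, and no call was kept without any 1 of the microbead libraries.

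Markers of other retinal cells are given beside the chaperones, and the share of all genes tested that passed was 12.8%. The 6 endothelial genes, led by *Flt1*, summed to 209.5, 230 and 291 CPM in the saline libraries and 128, 162 and 116 CPM in the microbead libraries, with 3 of 6 lower past the threshold. The 4 horizontal cell genes, led by *Calb1*, summed to 97.5, 114 and 149 CPM and to 92.9, 72.3 and 53.9 CPM, with 1 of 4 lower past the threshold. The 8 Müller glia genes, led by *Glul*, summed to 5427, 6053 and 9091 CPM and to 5543, 5325 and 4550 CPM, with 3 of 8 lower past the threshold, although the sums overlapped. Of 4 astrocyte genes 1 was lower past the threshold, *Aldh1l1* (log2 fold change -1.23, adjusted p = 0.0307 from edgeR). The other astrocyte genes were above 0, among them the most abundant, *Gfap* (0.31), and the median was 0.35. Of 7 cone genes 1 was higher past the threshold, *Arr3* (1.44, adjusted p = 0.0126 from edgeR), while 3 were below 0, among them the most abundant, *Opn1sw* (-0.20). *Aldh1l1* and *Arr3* were named after their values were seen, and the sums of both lists overlapped between the groups. In the lists of 7 bipolar, 7 amacrine, 7 microglia, 10 ganglion cell, 7 pigment epithelium and 5 erythrocyte genes, 0 passed in edgeR or limma-voom. In that order 1, 2, 3, 1, 0 and 0 had an unadjusted p-value under 0.05, and 1, 2, 3, 0, 0 and 0 passed in DESeq2. No gene of these lists was at 0 throughout. The part of these cells in the chaperone values was not tested.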

How the data were processed

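Per the labels and the study's methods, retinal poly(A) libraries were aligned with STAR 2.5.3a to GRCm38.p5 with the GENCODE vM12 annotation and counted on genes with featureCounts 1.15.2, and the authors deposited the counts of each gene and library without normalization. Columns of the authors' own DESeq2 comparison (means, fold changes, p-values and calls) stand in the same table and were not used. The treatment of reads that fit several places and of strand in counting is not given in the sources used here.

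Groups were set from the treatment label. The filter was filterByExpr (count of 10, total of 15) and the scaling TMM, and genes were tested by two-sided quasi-likelihood F-tests (edgeR 4.0.16, R 4.3.3), with p-values adjusted by Benjamini-Hochberg over 17707 genes and a threshold of 0.05. Intervals are 95%. For shares and sums the test was an exact permutation of the 6 libraries, two-sided. Positions, exon lengths and shared stretches of 31 and 100 bases came from GENCODE vM21 (GRCm38), and processed pseudogenes were assigned to a gene by a shared 100-base stretch or at least 2% of its 31-base stretches.

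The 10 genes and the lists were chosen with earlier results of these data known. All 10 were named, and in each chaperone and immediate early gene list the 2 genes with the largest change among those past the threshold, filled up by abundance. *Hspa5*, *Hsp90b1* and *Hspa9* were named as well, and the most abundant gene of each marker list whose sums or single genes are given. Genes said to be named after their values were seen fall outside these rules. A marker list and a comparison of patterns between genes are not reported here. The steps were tested on simulated data. No library was a copy of another of its group (smallest chi-square over degrees of freedom 22.0).

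Other choices compared were scaling by RLE, by upper quartile, or with mitochondrial and the 100 most abundant genes left out of library sizes, keeping all genes or only those with 10 counts throughout, DESeq2 1.42.0, voom in limma 3.58.1, a block for replicate number, each library left out in turn, and the added pseudogenes.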

Additional observations from a re-analysis of the deposited data

How the results depend on the processing

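*Hspa1b* and *Dnajb1* were past the threshold and lower under all 8 other processing choices with 6 libraries, and the pair *Hspa1a* and *Hspa1b* as 1 row as well (log2 fold change -1.17 to -1.08). As its own row, *Hspa1a* was at -0.71 and not past it, although it passed without a filter (-0.76, adjusted p = 0.0269 from edgeR). Across these alternatives 2 to 4 of the 10 genes passed. All genes past the threshold numbered 3720 without a filter, 3582 in DESeq2 and 905 with the replicate block. Saline and microbead libraries of the same number deviated together with r = -0.04, 0.14 and 0.01, and those of different numbers with r from -0.20 to 0.14. These values gave no sign of a pairing by number, but a preparation step shared by number was not tested. With the replicate block 2 of the 10 genes passed, the pair was at -1.16 (adjusted p = 0.0414 from edgeR) and *Hsf1* had an adjusted p of 0.0578 from edgeR.

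The sign of *Hsph1* turned with RLE scaling (0.014), upper-quartile scaling (0.038), at least 10 counts in every library (0.0065) and DESeq2 (0.014). The cause was not tested.

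With each library left out in turn, all genes past the threshold ranged from 46 (without microbead replicate 3) to 2621 (without saline replicate 1), with 293 without saline replicate 2, 1480 without saline replicate 3, 748 without microbead replicate 1 and 768 without microbead replicate 2. From 0 to 3 of the 10 genes passed, 0 without microbead replicate 3 and 1, *Hspa1b*, without saline replicate 2. The log2 fold changes ranged from -1.65 to -1.38 for *Hspa1b*, -0.99 to -0.74 for *Dnajb1*, 0.92 to 1.38 for *Hsf1* and -1.33 to -0.91 for the pair. *Hspa8* ranged from -0.13 (without microbead replicate 1) to 0.26, with -0.0018 without saline replicate 1, *Hsp90ab1* from -0.22 to 0.10 (without saline replicate 3) and *Hsph1* from -0.19 to 0.10. *Hsph1* was above 0 without saline replicate 3 (0.061), without microbead replicate 2 (0.059) and without microbead replicate 3 (0.10). The difference in the *Hsp90aa1* share ranged from -10.5 to -6.13 percentage points. *Hspa1a* ranged from -1.01 to -0.47, *Hspb1* from -1.28 to -0.66 and *Dnaja1* from -0.59 to -0.22. Of the genes past the threshold in the related chaperone and immediate early gene lists, the 10 named by rule were followed under each choice, and *Dnajb14*, *Sugt1* and the marker genes were not. These 10 kept their direction. From 8 to 10 of them passed under the other choices with 6 libraries, except for 2 with the replicate block, where *Pfdn5* had an adjusted p of 0.0583 from edgeR, and from 0 (without microbead replicate 3) to 9 with a library left out.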
